A study of Homo sapiens with 11 samples.

Results

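The genes described here encode the subunits of the transcription factor NF-kappaB (NFKB1, NFKB2, REL, RELA and RELB), its feedback inhibitors (NFKBIA and TNFAIP3) and genes that it activates (TRAF1 and BIRC3). They were chosen by name. A gene was taken from the probe sets of the array that carry its symbol as their only symbol, and was read from the one with the highest mean over the lines. Of the 9 genes, 8 were measured, through 18 probe sets, out of 19775 genes with 41091 such probe sets in all. No probe set of the annotation used carried BIRC3 as its only symbol, so BIRC3 was not analysed here.

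The study profiled 11 established cell lines of T-cell acute lymphoblastic leukemia (T-ALL), a cancer of immature T-cells, with 1 HG U133 Plus 2.0 array per line. It asked how leukemia lines with activity of NKL homeobox genes, a subclass of developmental transcription factor genes, differ from lines without it. By the labels, 6 lines were NKL-positive (LOUCY, JURKAT, PEER, HPB-ALL, ALL-SIL and CCRF-CEM) and 5 were NKL-negative (SUP-T1, CML-T1, MOLT-16, MOLT-14 and MOLT-4). The comparison of the groups took 5 NKL-positive lines and 5 NKL-negative lines and left JURKAT out, as the study did in its own comparison of the lines. No line was treated, each is the descendant of 1 patient's leukemia, and NKL-positive is a label given to the line that covers different NKL genes. The replicates of a group are therefore different cell lines, a single line has no error of its own, and precision is limited by how many arrays there were.

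NF-kappaB proteins act as pairs. In resting cells they are held in the cytoplasm by inhibitors of the IkappaB family, and signals from antigen, cytokine or TNF family receptors activate the IkappaB kinase (IKK) complex, which marks the inhibitors for destruction and frees the pairs to enter the nucleus. NFKBIA and TNFAIP3 are induced by NF-kappaB and switch it off again, and in T-ALL the pathway is known to be active downstream of NOTCH1 and of the pre-T-cell receptor. An array measures transcripts and not the location or activity of the proteins, and in a sample of bulk cells a smaller number of expressing cells cannot be told apart from less RNA per cell.

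The arrays had similar medians, 4.63 to 4.76 on the log2 scale, and upper quartiles of 6.68 to 7.18. The upper quartile was 7.18 in CML-T1, 7.14 in HPB-ALL and 7.12 in MOLT-16 and at most 7.02 in the other lines. It was lowest in MOLT-4 (6.68), which had the highest lower quartile (3.60). The arrays also differed in the poly-A controls, bacterial transcripts that are added to the RNA before labelling. The mean of these controls was 5.96 to 9.48 in 8 lines but 3.0 to 3.14, the level of background, in CML-T1, HPB-ALL and MOLT-16. These 3 lines stand apart technically, so results that rest on them are also given without them, and their part in the results was not tested. Among the T-lineage markers, 9 of 10 measured genes lay above the array's upper quartile in all 11 lines, and the other one, CD2, did so in 4. Of the 8 measured myeloid markers, CD14, MPO, FCGR1A, CD163 and ELANE lay below the array's median in all 11 lines, LYZ did so in 9, and CSF1R and ITGAM did so in 7 each, and none lay above the upper quartile in any line. Some markers of other lymphoid cells were high in part of the lines, and most were not. Of the B-lineage markers, CD79A lay above the upper quartile in 6 lines, CD79B and EBF1 in 2 each, and MS4A1, PAX5 and CD22 in 0. Of the NK-cell markers, NKG7 and GNLY did so in 7 and 2, and NCAM1, KLRD1, KLRF1 and NCR1 in 0. The part of these markers in the results was not tested.

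The promoters of several of these genes hold letters that match the kappaB consensus, the sequence NF-kappaB is known to bind. The consensus, searched on both strands as 10 letters with overlapping matches joined, occurred in 11.3% of 35116 RefSeq promoter windows, each from 250 bases before to 50 after a start site, and in 13.3% of 27305 genes. Of the NF-kappaB genes, 7 had windows in the RefSeq table (RELB had no entry), and 5 of the 7 held a match, in 6 of 13 windows. NFKB1, NFKB2, REL, NFKBIA and TNFAIP3 had a match, and the windows of RELA and TRAF1 held none. The matching stretches are shown because they show where the consensus stands in the genes whose levels follow. They are given 5′ to 3′ on the gene's strand from RefSeq on GRCh38.p14, with the matches in capitals, and a match is a description and not a site shown to be bound.
NFKB1, chr4:102501285-102501344, plus strand: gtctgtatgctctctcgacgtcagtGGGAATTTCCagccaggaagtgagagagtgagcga
NFKB2, chr10:102394446-102394534, plus strand: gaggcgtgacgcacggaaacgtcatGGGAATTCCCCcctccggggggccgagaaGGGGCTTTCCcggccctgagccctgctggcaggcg
REL, chr2:60881502-60881562, plus strand: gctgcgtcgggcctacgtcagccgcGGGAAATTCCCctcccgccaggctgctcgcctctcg
NFKBIA, chr14:35404796-35404855, minus strand: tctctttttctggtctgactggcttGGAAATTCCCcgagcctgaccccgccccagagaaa
TNFAIP3, chr6:137867167-137867238, plus strand: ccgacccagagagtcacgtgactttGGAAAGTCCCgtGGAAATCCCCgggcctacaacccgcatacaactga
The match of NFKB1 began 49 bases before its start site, that of REL 47 bases and that of NFKBIA 81 bases. TNFAIP3 held a pair of matches 67 and 55 bases before the start site of its window, which lies inside the locus given for the gene below. NFKB2 held a pair at 107 and 78 bases in the window shown, with another matching window at a further start site. The NFKB2 window at the start of its locus held no match.

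NFKB1 encodes p105, which is processed to the DNA-binding subunit p50 and lies at chr4:102501359-102617302 (GRCh38.p14). It read 7.24 in ALL-SIL, 8.76 in CCRF-CEM, 8.64 in HPB-ALL, 9.20 in LOUCY and 8.37 in PEER, and 8.42 in JURKAT. In the NKL-negative lines it read 7.60 in CML-T1, 5.27 in MOLT-4, 6.38 in MOLT-14, 9.06 in MOLT-16 and 6.46 in SUP-T1. Every NKL-positive line but ALL-SIL stood above 8, whereas 4 of the NKL-negative lines stood below it and MOLT-16 lay between LOUCY and CCRF-CEM, the highest NKL-positive lines, so the groups overlapped. The gene spanned 3.93 on the log2 scale, a 15.2-fold range, with LOUCY at the top and MOLT-4 at the bottom.

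NFKB1 averaged 8.44 ± 0.74 in NKL-positive lines and 6.95 ± 1.44 in NKL-negative lines (SD, n = 5 each), a difference of 1.49 on the log2 scale (SE 0.64, 95% interval 0.07 to 2.91). With limma the unadjusted p was 0.0419 and the p adjusted over 54613 probe sets was 0.981, so the difference was not called. The difference was 2.36 (SE 0.51, limma adjusted p = 0.391) among the lines with poly-A signal, where the groups did not overlap, at 7.24 to 9.20 in 4 NKL-positive lines and 5.27 to 6.46 in 3 NKL-negative lines. Among the 3 lines without that signal HPB-ALL exceeded the mean of CML-T1 and MOLT-16 by 0.31. The value depended on single NKL-negative lines, being 1.07 without MOLT-4 and 2.01 without MOLT-16, and with JURKAT it was 1.48. MOLT-4 also had the widest 3-prime to 5-prime gap of the ACTB control transcript, a measure of RNA integrity (1.17 on the log2 scale, next to 1.02 in CML-T1). This gap averaged 0.51 ± 0.28 in NKL-positive lines and 0.88 ± 0.28 in NKL-negative lines (two-sided exact permutation p = 0.0873). For the GAPDH control the gap was 0.72 in MOLT-4 and at most 0.24 in the other lines. It averaged 0.08 ± 0.17 in NKL-positive lines and 0.23 ± 0.28 in NKL-negative lines (two-sided exact permutation p = 0.429). The part of RNA integrity in the NFKB1 difference was not tested.

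NFKB2, at chr10:102394110-102402529, encodes p100, the precursor of p52 that serves the non-canonical pathway. It read 5.17 in ALL-SIL, 7.23 in CCRF-CEM, 7.87 in HPB-ALL, 6.08 in LOUCY and 5.13 in PEER, with 6.81 in JURKAT. The NKL-negative lines gave 6.36 in CML-T1, 4.36 in MOLT-4, 5.53 in MOLT-14, 6.85 in MOLT-16 and 6.37 in SUP-T1. HPB-ALL and CCRF-CEM were the highest of all lines, but ALL-SIL and PEER lay below 4 of the 5 NKL-negative lines, and only MOLT-4 was lower than every NKL-positive line. The range was 3.51, or 11.4-fold, but 1.36 when the 3 probe sets of the gene were averaged. The means were 6.30 ± 1.23 in NKL-positive lines and 5.89 ± 0.98 in NKL-negative lines (SD), a difference of 0.40 (SE 0.63, limma adjusted p = 0.983), which was 0.01 without HPB-ALL. That difference was 0.48 among the lines with poly-A signal.

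The partner of p52 is RELB, at chr19:45001464-45038192, a subunit that does not form homodimers. It read 3.66 in ALL-SIL, 5.81 in CCRF-CEM, 8.11 in HPB-ALL, 5.22 in LOUCY and 4.91 in PEER, and 5.22 in JURKAT. In the NKL-negative lines the values were 5.38 in CML-T1, 4.71 in MOLT-4, 5.17 in MOLT-14, 5.55 in MOLT-16 and 5.34 in SUP-T1. RELB spanned 4.45 on the log2 scale, or 21.9-fold, and this rested on both ends of the NKL-positive group: HPB-ALL stood 2.30 above the next line, CCRF-CEM, and ALL-SIL, at 3.66, was close to its array's lower quartile of 3.49, a level near background. Without HPB-ALL the range was 2.15, as it was among the lines with poly-A signal, where NFKB1 spanned 3.93, and the NKL-negative lines varied little (SD 0.32). The group means were 5.54 ± 1.64 in NKL-positive lines and 5.23 ± 0.32 in NKL-negative lines (SD), with a difference of 0.31 (SE 0.66, limma adjusted p = 0.991) that turned to -0.33 without HPB-ALL and to -0.17 among the lines with poly-A signal.

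**Figure D1:**
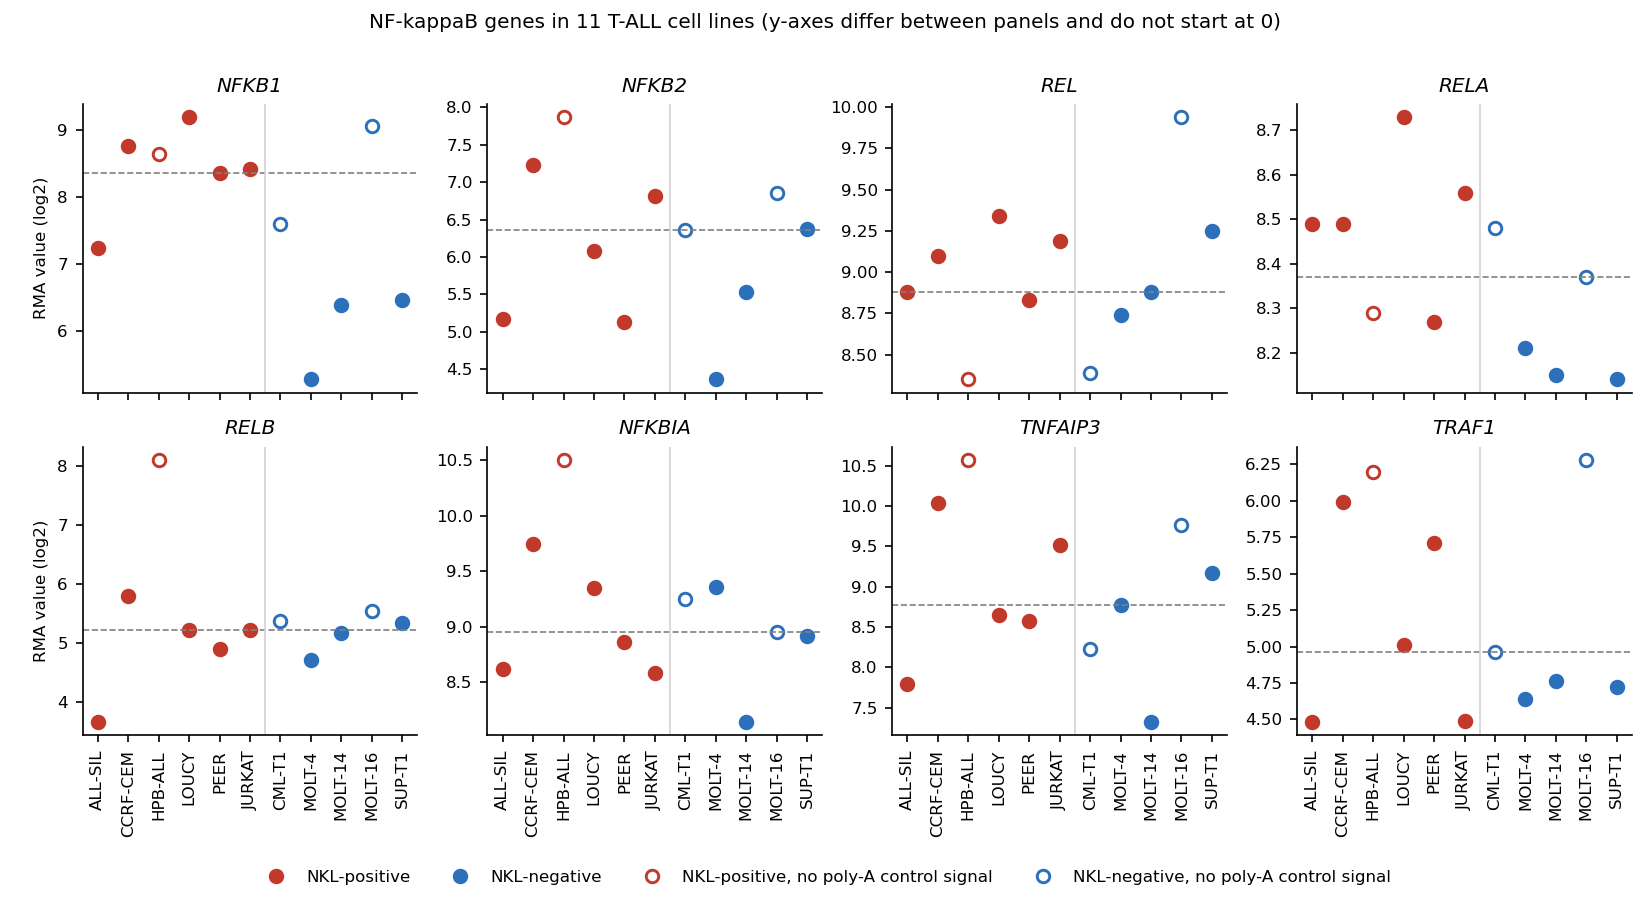
Level of each NF-kappaB gene (RMA value, log2 scale; the axes do not start at 0) in each cell line, NKL-positive lines left of the grey line and NKL-negative lines right of it. Each point is 1 array, open points are the 3 lines without poly-A control signal, and the dashed line is the median of the 11 lines. HPB-ALL was highest for NFKB2, RELB, NFKBIA and TNFAIP3, MOLT-16 for REL and TRAF1, and RELA stayed between 8.14 and 8.73.

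RELA and REL encode the subunits with transactivation domains that pair with p50 in the canonical pathway. RELA, or p65, at chr11:65653601-65663857, read 8.49 in ALL-SIL, 8.49 in CCRF-CEM, 8.29 in HPB-ALL, 8.73 in LOUCY and 8.27 in PEER, with 8.56 in JURKAT. It read 8.48 in CML-T1, 8.21 in MOLT-4, 8.15 in MOLT-14, 8.37 in MOLT-16 and 8.14 in SUP-T1. RELA had the smallest range of the 8 genes over the 11 lines, 0.59 (1.51-fold), and an SD of 0.19 over the 11 lines. A smaller SD was found for 3.03% of all genes and for 0.722% of the genes above the median level. The means were 8.45 ± 0.19 in NKL-positive lines and 8.27 ± 0.15 in NKL-negative lines (SD), which differed by 0.18 (SE 0.17, limma adjusted p = 0.981). Among the lines with poly-A signal the groups of RELA did not overlap, at 8.27 to 8.73 in NKL-positive lines and 8.14 to 8.21 in NKL-negative lines, with a difference of 0.33 (SE 0.19, limma adjusted p = 0.730). On the second probe set of RELA the groups of these lines overlapped. PEER read 7.19 there, below MOLT-4 at 7.20, MOLT-14 at 7.23 and SUP-T1 at 7.27. By the probe set with the highest mean, 2 of the 8 genes, NFKB1 and RELA, had groups that did not overlap in these lines, whereas 7.88% of all genes did, and with JURKAT the same 2 genes did against 4.59% of all genes.

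REL, at chr2:60881574-60931612, encodes c-Rel, a subunit of lymphoid cells. It read 8.88 in ALL-SIL, 9.10 in CCRF-CEM, 8.35 in HPB-ALL, 9.34 in LOUCY and 8.83 in PEER, and 9.19 in JURKAT. It read 8.39 in CML-T1, 8.74 in MOLT-4, 8.88 in MOLT-14, 9.94 in MOLT-16 and 9.25 in SUP-T1. On the probe set read, MOLT-16 was the highest line and HPB-ALL, which led 4 other genes, was the lowest. The range was 1.59, or 3.01-fold, and 0.60 among the lines with poly-A signal, and it was 2.52 with the mean of the probe sets and 3.61 on the probe set with the largest SD. The other 4 probe sets of REL also peaked in MOLT-16, at 9.97, 8.96, 8.32 and 6.01, and stood 1.35, 1.13, 2.02 and 1.38 above the next line, in that order. They were lowest in MOLT-14 or MOLT-4 and not in HPB-ALL, which read 7.82, 7.19, 5.06 and 4.33. Their r with the probe set read was 0.657, 0.692, 0.723 and 0.335, as a description. REL was the 1 gene of the 8 with the lower mean in NKL-positive lines, 8.90 ± 0.37 against 9.04 ± 0.59 in NKL-negative lines (SD), a difference of -0.14 (SE 0.30, limma adjusted p = 0.991) that was 0.08 without MOLT-16.

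Of the feedback inhibitors, NFKBIA, at chr14:35401513-35404749, encodes IkappaB-alpha, which binds NF-kappaB pairs and carries them out of the nucleus. It read 8.62 in ALL-SIL, 9.74 in CCRF-CEM, 10.50 in HPB-ALL, 9.35 in LOUCY and 8.86 in PEER, with 8.58 in JURKAT. The NKL-negative lines gave 9.25 in CML-T1, 9.36 in MOLT-4, 8.14 in MOLT-14, 8.95 in MOLT-16 and 8.92 in SUP-T1. HPB-ALL and CCRF-CEM exceeded every NKL-negative line and MOLT-14 was below every NKL-positive line, while the others were mixed. The range was 2.36 (5.13-fold), but 1.34 when both probe sets were averaged, the second of them dim. The means of 9.41 ± 0.75 in NKL-positive lines and 8.92 ± 0.48 in NKL-negative lines (SD) differed by 0.49 (SE 0.37, limma adjusted p = 0.981), and by 0.22 without HPB-ALL. They differed by 0.34 among the lines with poly-A signal.

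TNFAIP3, at chr6:137866349-137883312, encodes A20, a ubiquitin-editing enzyme that stops signalling from TNF and antigen receptors. It read 7.79 in ALL-SIL, 10.04 in CCRF-CEM, 10.57 in HPB-ALL, 8.65 in LOUCY and 8.58 in PEER, and 9.52 in JURKAT. It read 8.23 in CML-T1, 8.77 in MOLT-4, 7.32 in MOLT-14, 9.77 in MOLT-16 and 9.17 in SUP-T1. HPB-ALL and CCRF-CEM were again the highest pair and MOLT-14 the lowest line, and the range was 3.25 (9.51-fold). The second probe set followed the first over the 11 lines (r = 0.933, as a description). TNFAIP3 averaged 9.13 ± 1.14 in NKL-positive lines and 8.65 ± 0.93 in NKL-negative lines (SD), a difference of 0.47 (SE 0.59, limma adjusted p = 0.982) that was 0.11 without HPB-ALL. That difference was 0.34 among the lines with poly-A signal.

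TRAF1, at chr9:120902393-120929171, encodes an adaptor of TNF family receptors that NF-kappaB induces. It read 4.48 in ALL-SIL, 5.99 in CCRF-CEM, 6.20 in HPB-ALL, 5.01 in LOUCY and 5.71 in PEER, with 4.49 in JURKAT. It read 4.96 in CML-T1, 4.64 in MOLT-4, 4.76 in MOLT-14, 6.28 in MOLT-16 and 4.72 in SUP-T1. MOLT-16 was separate from the other 4 NKL-negative lines, which lay within 4.64 to 4.96, near the medians of their arrays. The range was 1.80 (3.48-fold). TRAF1 averaged 5.48 ± 0.72 in NKL-positive lines and 5.07 ± 0.69 in NKL-negative lines (SD), a difference of 0.41 (SE 0.41, limma adjusted p = 0.981) that was 0.23 without HPB-ALL and 0.71 without MOLT-16. That difference was 0.59 among the lines with poly-A signal.

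No NF-kappaB gene passed the adjusted threshold of 0.05 between the groups, while 5 of all 54613 probe sets (0.00916%) did. At an unadjusted limma p under 0.05 there was 1 of 8 genes, NFKB1, against 5.26% of all genes, and among the lines with poly-A signal again 1 of 8, against 7.83%. In no gene were the groups free of overlap, against 0.905% of all genes. NKL-positive lines had the higher mean for 7 of 8 genes, where 49.8% of all genes did, and the median difference was 0.40 on the log2 scale beside a median of -0.00 over all genes. Without HPB-ALL the median of the 8 differences was 0.17 and 6 genes were higher. With the lines with poly-A signal alone the median of the 8 was 0.34 and 7 genes were higher. Over all genes that median was -0.05 and 8711 of 19775 were higher. Over all 18 probe sets 12 had the higher mean in NKL-positive lines and 6 the lower.

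**Figure D2:**
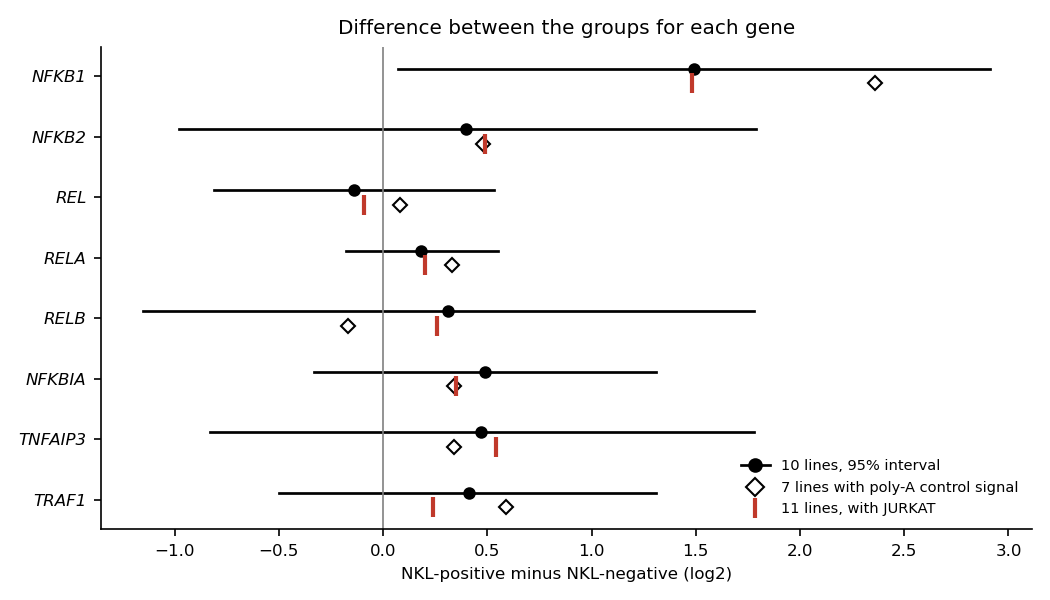
Difference in mean level between NKL-positive and NKL-negative lines for each NF-kappaB gene (log2 scale). Filled points and bars give the 10-line comparison with its 95% interval, open diamonds the 7 lines with poly-A control signal, and red ticks all 11 lines with JURKAT. The interval of NFKB1, from 0.07 to 2.91, is the 1 interval that lies above 0, and the diamond of RELB is below 0 where its filled point is above.

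Where a gene had several probe sets, they did not always read alike. The main probe set of NFKB2 peaked in HPB-ALL, a second one peaked in JURKAT at 6.17 and was unrelated to the first over the 11 lines (r = 0.03), and another, at 2.79 to 4.25, lay near the lower quartiles of the arrays. The second probe set of NFKBIA was likewise dim, at 3.49 to 5.09, and did not follow the first (r = -0.09). The second probe sets of TRAF1 (r = 0.82) and RELA (r = 0.71) followed the first. The peak of NFKB2 in HPB-ALL and of NFKBIA in HPB-ALL was thus read by 1 probe set each, whereas the high TNFAIP3 and TRAF1 of HPB-ALL and the high REL of MOLT-16 were read by every probe set of those genes.

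**Figure D3:**
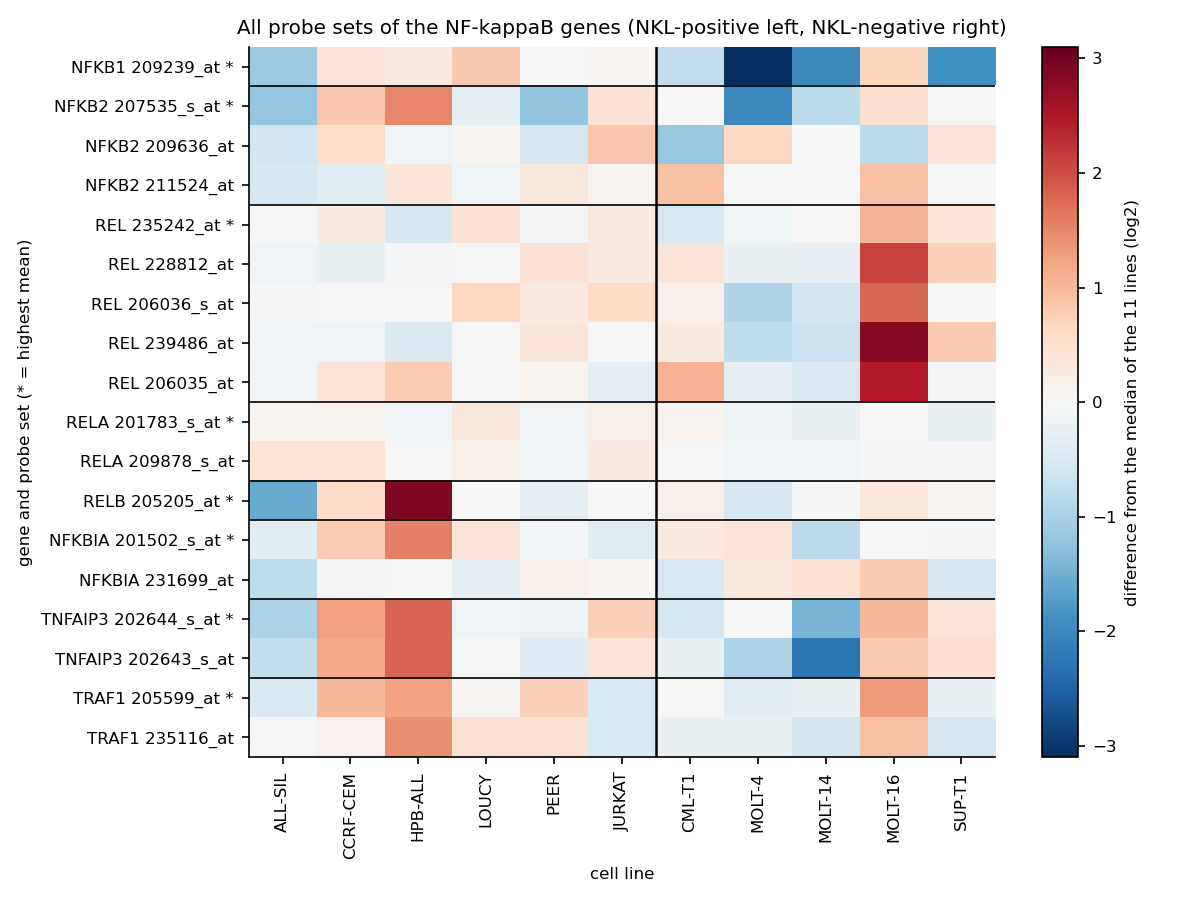
Every probe set of the NF-kappaB genes (rows) in every cell line (columns, NKL-positive left and NKL-negative right), coloured by its difference from its own median over the 11 lines on the log2 scale. All 5 REL probe sets were highest in MOLT-16, and both TNFAIP3 probe sets were highest in HPB-ALL and lowest in MOLT-14.

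By line, HPB-ALL was the highest of the 11 for 4 of the 8 genes (NFKB2, RELB, NFKBIA and TNFAIP3), while it was the highest for 11.1% of all genes. MOLT-16 was the highest for 2 (REL and TRAF1), against 10.4% of all genes. Both lines lacked the poly-A signal, and so did CML-T1, which was the highest for none of the 8. CCRF-CEM, with that signal, stood above the median of the 11 lines for all 8 genes, against 42.3% of all genes, and was second to HPB-ALL for the same 4. MOLT-14 was at or below the median for all 8, against 52.8% of all genes. ALL-SIL, PEER and MOLT-4 each exceeded the median for 1 gene. The 8 genes of a line come from 1 array and are not replicates.

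Over the lines, NFKB2, RELB, NFKBIA, TNFAIP3 and TRAF1 varied in the same direction. These 5 were grouped after their values were seen. Pearson's r was 0.53 to 0.78 in their 10 pairs (n = 11 lines, 1 array each, normalized by the authors), 0.23 to 0.72 without HPB-ALL and 0.22 to 0.69 among the 8 lines with poly-A signal. NFKB2 and RELB were the most alike pair over the 11 lines, with r = 0.78 and Spearman's rho = 0.92, and r = 0.72 without HPB-ALL. Among the lines with poly-A signal this pair gave 0.69, below NFKB1 with RELA (0.79) and NFKB2 with REL (0.78). NFKB1 was nearest to NFKB2 and RELA (r = 0.66 and 0.65). Its pairs with the other 7 genes gave 0.33 to 0.66 over the 11 lines and 0.24 to 0.71 without HPB-ALL. The 5 grouped genes were thus not set apart from NFKB1 without HPB-ALL. The pairs of REL with the other 7 genes gave r of -0.35 to 0.33 over the 11 lines, -0.01 to 0.59 without HPB-ALL and 0.01 to 0.78 among the lines with poly-A signal, so its place among the genes depended on those lines. These values rest on 1 of the 5 probe sets of REL, the only one that was lowest in HPB-ALL. The pairs of NFKB2 likewise rest on 1 of its 3 probe sets, with which the others gave r of 0.03 and 0.285. Those of NFKBIA rest on 1 of its 2, with which the other gave -0.09, and RELB had 1 probe set. All 28 pairs were computed, and r serves as a description.

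**Figure D4:**
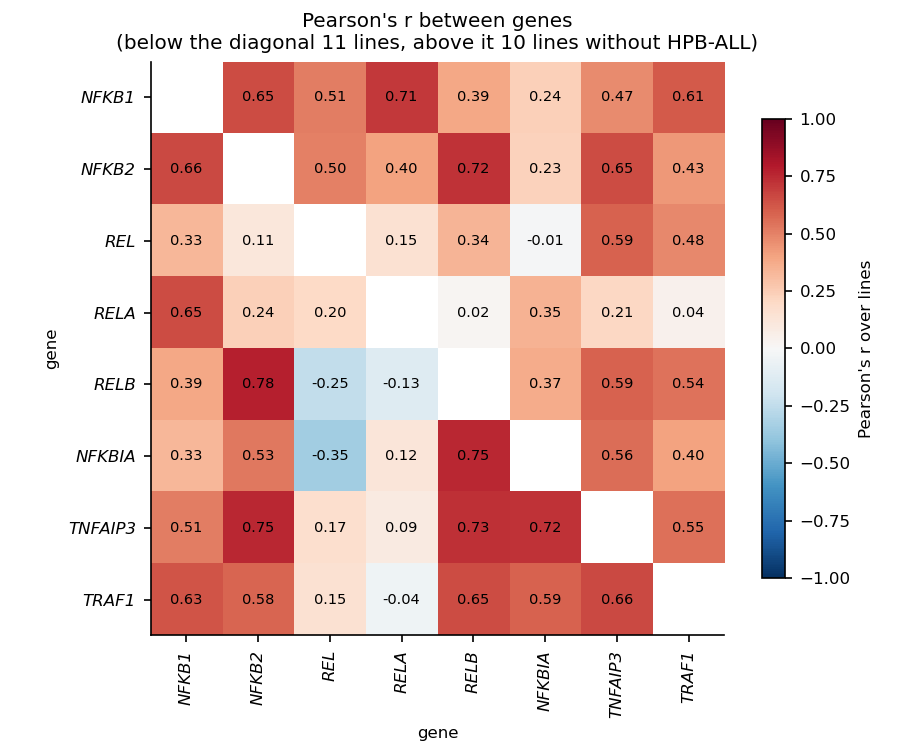
Pearson's r between the levels of the NF-kappaB genes over lines, below the diagonal for all 11 lines and above it for the 10 lines without HPB-ALL. NFKB2 and RELB gave 0.78 and 0.72, and the pairs of REL with the other genes ran from -0.35 to 0.33 over the 11 lines and from -0.01 to 0.59 without HPB-ALL.

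Among 7415 or 7416 other genes with an SD of at least 0.5 and a mean above the median of all means, the 3 most like each NF-kappaB gene over the 11 lines were named, where REL and RELA fell outside the genes compared by their own SD. They were picked for the highest r in these same values, so a high r was bound to be found and serves only as a description. The lines with poly-A signal are part of the 11, so r among them is no separate support. For NFKB1 they were SHC1 (r = 0.95), HACD2 (0.92) and C5orf22 (0.91), and each gave 0.96 or above among the lines with poly-A signal. For NFKB2 they were ODF2 and GAS5 (0.91 each) and CKAP2L (0.89), and for RELA SLC37A1 (0.91), SH3BGRL3 (0.87) and MAPKAPK2 (0.85). For RELB they were CHRNA6 (0.90), EXOC4 and ST6GALNAC4 (0.87 each), and EXOC4 was at 0.42 among the lines with poly-A signal. The genes most like REL were PLPP1 (0.92), KRT72 (0.86) and OASL (0.81), of which KRT72 and OASL were at 0.14 and 0.26 among the lines with poly-A signal. For NFKBIA they were PCDH9 (0.86), IL15RA (0.85) and FNIP2 (0.84), for TNFAIP3 GMPS (0.92), KBTBD3 (0.87) and LOC100996756 (0.86), and for TRAF1 PON2 (0.92), ATP13A3-DT (0.89) and NINJ2-AS1 (0.86).

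The wider pathway was read from 9 lists of 135 genes, of which 127 were measured. None passed the adjusted threshold, 4 had an unadjusted limma p under 0.05 (3.15%, against 5.26% of all genes), 70 were higher in NKL-positive lines and 57 lower, and the median difference was 0.08. By role, the median was 0.20 for 6 IkappaB family members, 0.02 for 12 IKK subunits and upstream kinases, 0.14 for 8 genes of antigen receptor input, 0.15 for 19 receptors, 0.19 for 13 receptor adaptors, -0.13 for 14 ligands, 0.08 for 14 negative regulators, -0.08 for 36 other target genes and -0.07 for 5 genes of the NOTCH link. The adaptors were the most one-sided list, with 12 higher and 1 lower, whereas 4 of the ligands were higher and 10 lower. Among the lines with poly-A signal 10 of the 13 adaptors were higher, and 7 of the 14 ligands were higher with a median of 0.04.

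**Figure D5:**
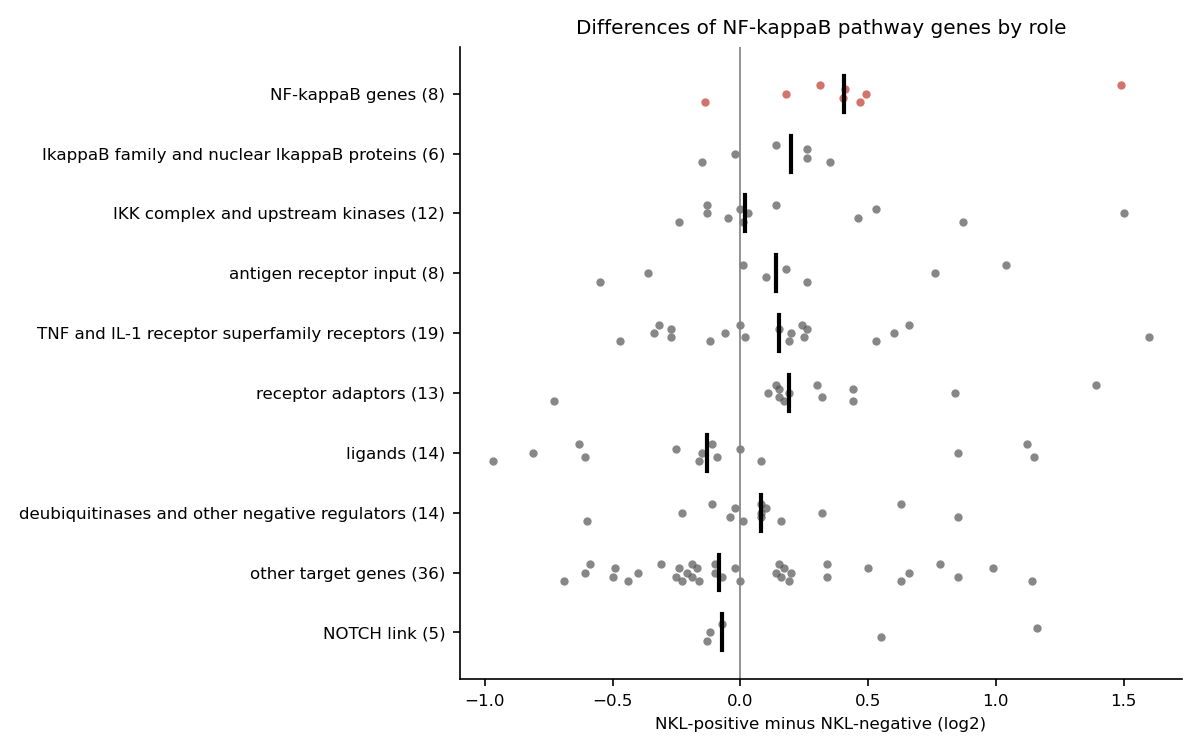
Difference between NKL-positive and NKL-negative lines (log2 scale) for the 8 NF-kappaB genes (red) and for the measured genes of 9 pathway lists (grey, with their number), 1 point per gene and a black bar at the list's median. The medians lie between -0.13 and 0.20 for the lists and at 0.40 for the NF-kappaB genes.

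Of the IkappaB family, NFKBIE, which encodes IkappaB-epsilon, averaged 6.37 ± 0.50 in NKL-positive lines and 6.02 ± 0.21 in NKL-negative lines and was highest in HPB-ALL at 7.17, and the difference of 0.35 was 0.15 without that line and 0.05 among the lines with poly-A signal. NFKBIZ, a nuclear IkappaB protein, ran from 3.97 in SUP-T1 to 7.45 in PEER. NKIRAS1, which encodes a small GTPase that binds IkappaB, ran from 3.74 in MOLT-14 to 7.33 in CML-T1. NFKBIB differed by 0.26 and NFKBID by 0.14, and among the lines with poly-A signal by 0.08 and 0.01.

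Of the kinases, TBK1, an IKK-related kinase of innate immune signalling, averaged 8.35 ± 0.61 in NKL-positive lines and 6.84 ± 1.26 in NKL-negative lines (SD, n = 5 each), a difference of 1.50 (SE 0.56). The limma adjusted p was 0.981. It was 7.66 in ALL-SIL, 7.85 in CCRF-CEM, 8.61 in HPB-ALL, 9.18 in LOUCY and 8.44 in PEER, and 5.76 in CML-T1, 6.02 in MOLT-4, 6.08 in MOLT-14, 8.59 in MOLT-16 and 7.77 in SUP-T1. As for NFKB1, MOLT-16 was the highest NKL-negative line. MOLT-16 and SUP-T1 lay within the NKL-positive range of 7.66 to 9.18, so the groups overlapped. TAB1, an activator of the kinase TAK1, differed by 0.53, MAP3K8 by 0.87 and TAB3 by 0.46, which was 0.75 among the lines with poly-A signal.

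In the antigen receptor input, MALT1, the paracaspase that links the receptor to IKK, averaged 7.94 ± 0.24 in NKL-positive lines and 6.91 ± 1.37 in NKL-negative lines, with a low value of 4.64 in MOLT-4, and the difference of 1.04 was 0.47 without that line. PLCG1, which makes second messengers after receptor engagement, differed by -0.55, the kinase LCK by -0.36 and the kinase ZAP70 by 0.26, which was -0.03 among the lines with poly-A signal. The costimulatory receptor CD28 spanned 6.17, from 4.02 in CML-T1 to 10.19 in MOLT-14. Of the receptors, TNFRSF4, or OX40, averaged 6.40 ± 1.05 in NKL-positive lines and 4.80 ± 1.83 in NKL-negative lines, and its difference of 1.60 was 0.25 among the lines with poly-A signal. The TNF receptor TNFRSF1A differed by 0.53, TNFRSF18 by 0.60 and TLR4 by -0.34, and among the lines with poly-A signal these were 0.84, -0.01 and -0.22, and IL18R1 spanned 4.85 with peaks of 7.63 in LOUCY and 7.05 in MOLT-16.

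Of the adaptors, RIPK2, the kinase of the NOD receptors, averaged 6.02 ± 1.51 in NKL-positive lines and 4.64 ± 0.77 in NKL-negative lines and was 7.72 in HPB-ALL and 7.17 in PEER. SHARPIN and RBCK1 encode subunits of the linear ubiquitin ligase and differed in opposite directions, by 0.44 and -0.73. TRAF4 differed by 0.44, and by 0.16 among the lines with poly-A signal, and TRAF5 spanned 6.51, from 3.60 in ALL-SIL to 10.11 in LOUCY.

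Among the ligands, TNFSF9, or 4-1BB ligand, read 3.60 in ALL-SIL, 3.14 in CCRF-CEM, 4.05 in HPB-ALL, 4.03 in LOUCY and 3.95 in PEER, and 5.81 in CML-T1, 4.28 in MOLT-4, 4.28 in MOLT-14, 5.09 in MOLT-16 and 4.15 in SUP-T1. It was the 1 of the 127 measured pathway genes whose groups did not overlap in the 10 lines, a share near the 0.905% of all genes. The highest NKL-positive line read 4.05 against 4.15 in the lowest NKL-negative line. The gene was dim: every line but CML-T1, MOLT-16 and JURKAT read below its array's median, and CCRF-CEM read below its array's lower quartile of 3.51. The difference was -0.97 (SE 0.34, limma adjusted p = 0.981), -0.56 among the lines with poly-A signal, and JURKAT, NKL-positive by label, read 5.19. TNF itself was highest in ALL-SIL at 8.26 and CCRF-CEM at 6.62 and lay between 3.60 and 5.22 in the other lines. LTB spanned 5.81, with 11.62 in CML-T1, and TNFSF10, or TRAIL, spanned 8.21, from 2.92 in HPB-ALL to 11.13 in MOLT-14. CD70 and IL1A differed by -0.81 and -0.63, both were highest in CML-T1, and without that line they differed by -0.37 and -0.36.

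Of the negative regulators, TNIP1, a partner of A20, averaged 8.99 ± 0.44 in NKL-positive lines and 8.36 ± 0.47 in NKL-negative lines, a difference of 0.63 that was 0.30 among the lines with poly-A signal. The deubiquitinase CYLD differed by -0.60 and by 0.02 among the lines with poly-A signal. USP4 differed by 0.32, and by 0.77 among those lines. PDLIM2, which promotes removal of nuclear p65, differed by 0.85, and by 2.38 (SE 0.69, limma adjusted p = 0.548) among the lines with poly-A signal. In the lines without that signal, where HPB-ALL was the only NKL-positive line, it differed by -2.96. Of the 2 probe sets of PDLIM2, 1 went the other way, and their mean differed by 0.195 in the 10 lines. Of the other target genes, TNFAIP2 averaged 5.24 ± 0.76 in NKL-positive lines and 4.25 ± 0.57 in NKL-negative lines, a difference of 0.99 (SE 0.40, limma adjusted p = 0.981), and IL2RA and TNFAIP8 differed by -0.69 and -0.59, where IL2RA was -0.36 among the lines with poly-A signal. PTGS2 read 2.64 to 3.26, below the lower quartile of the arrays in every line, so no difference is given for it. The survival gene BCL2A1 stood at 8.11 in MOLT-16, 2.50 above the next line, and the adhesion receptor CD44 spanned 8.03, from 3.34 in SUP-T1 to 11.37 in CML-T1.

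The NOTCH link held NOTCH1, its targets HES1 and DTX1, NOTCH3 and the pre-T-cell receptor gene PTCRA. NOTCH1 averaged 8.84 ± 1.24 in NKL-positive lines and 8.97 ± 2.16 in NKL-negative lines and was lowest in MOLT-16 (6.60) and CML-T1 (6.67). HES1 was 3.0 in MOLT-16, 4.48 in LOUCY and 3.92 in JURKAT and at least 7.82 in the other lines. DTX1 differed by 1.16 and PTCRA by -0.12. Among the lines with poly-A signal all 5 genes of this list were lower in NKL-positive lines, with a median of -1.62, where 8711 of all 19775 genes were higher. The smallest limma adjusted p there among NOTCH1, HES1, DTX1 and PTCRA was 0.636. SUP-T1, 1 of the 3 NKL-negative lines with that signal, was the highest line for NOTCH1 (11.13) and PTCRA (9.91). In the 10 lines, 2 of the 3 probe sets of PTCRA, 1 of the 2 of NOTCH1 and 1 of the 3 of HES1 went the other way from the one read.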

How the data were processed

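The data were 11 HG U133 Plus 2.0 arrays of untreated T-ALL cell lines. The authors processed the arrays by RMA (affy), and the deposited values are on the log2 scale with 2 decimals, used without further scaling. Array precision is limited by 1 array per line. RMA quantile normalization makes the array distributions more alike, so a shift of all genes would not show. Tests did not include the 62 control probe sets. Symbols came from the platform annotation: 41091 probe sets had 1 symbol, 1801 had several and 11721 were not named here. Genes were not ranked by level, and a value was set only against its array's quartiles, to show nearness to background.

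Linear models with empirical Bayes moderation (limma 3.58.1, R 4.3.3) compared NKL-positive with NKL-negative lines, with p-values adjusted by Benjamini-Hochberg over 54613 probe sets (threshold 0.05). The study's methods name limma and no covariates. The fit was tested on simulated data. Python 3.11.15, pandas 2.3.3 and SciPy 1.17.1 were used otherwise. P-values measure the spread between cell lines. The named genes were all members, of each pathway list the 4 with the smallest p and the 2 with the widest range, any pathway gene whose groups did not overlap, and the 3 most alike genes of each member. The members and lists were chosen with earlier results of these data known. The alternatives were 11 lines, each line left out, scaling, a filter, a floor at the 25th percentile, variance models, gene summaries and the poly-A controls, 22 in all. A line was taken to have poly-A signal above a mean of 4.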

Additional observations from a re-analysis of the deposited data

Results flagged for a closer look

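Of 88 groups of lines (44 genes), 6 held a line whose gap to the nearest other line took an unusually large share of the group's range, and chance gives about 1 in 20 such groups. TRAF1 read 6.28 in MOLT-16, where the nearest NKL-negative line read 4.96. TAB1 read 5.59 in SUP-T1, next to 5.10. TNFRSF1A was low in HPB-ALL, at 7.78 with the nearest NKL-positive line at 8.54, and in SUP-T1, at 7.06 with the nearest NKL-negative line at 8.15. HES1 read 3.0 in MOLT-16, and the nearest NKL-negative line read 7.82. PTCRA read 8.56 in HPB-ALL, and the nearest NKL-positive line, JURKAT, read 6.96. HPB-ALL and MOLT-16 lacked poly-A control signal, and its part in these values was not tested.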

How the results depend on the processing

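No paired analysis was possible because the lines are unrelated and their numbers only follow the order of deposit. Under all 22 alternatives 0 of the 8 NF-kappaB genes were called. Their differences kept their direction in 169 of 176 values, and the smallest limma adjusted p was 0.391. The probe sets called over the array were 5, against 0 with all 11 lines, 3 with the floor, 3 with the lines with poly-A signal, 3 with a term for the lines without it, 1 with the lines with that signal and JURKAT, and 3 to 13 when a line was left out. The genes whose groups did not overlap were 0, and 2 with the lines with poly-A signal, with or without JURKAT. Of these 2, RELA had groups that overlapped on its second probe set. The cause was not tested.

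REL (-0.14) was 0.0808 among the lines with poly-A signal, 0.11 with JURKAT as well, and -0.30 to 0.085 with a line left out. RELB (0.31) was -0.17 and -0.11 in the same fits, -0.0038 with array weights, and -0.33 to 0.78 with a line left out. Of the 36 pathway genes named for their p, 12 changed direction in 28 of 787 values. With the lines with poly-A signal, and then with JURKAT as well, TNFRSF18 was -0.0117 and -0.0267, CYLD 0.0217 and 0.20, DTX1 -1.36 and -1.59, and HES1 -0.35 and -1.17, while ZAP70 was -0.0308 in the first. With all 11 lines NFKBIZ was -0.012 and HES1 -0.13. With the probe set of the largest SD NFKBIB was -0.11, TAB3 -0.35, TNIP1 -0.14 and PTCRA 0.35. With the mean over probe sets PTCRA was 0.0807 and NOTCH1 0.12. With a line left out NFKBID was -0.0235 to 0.30, NFKBIZ -0.19 to 0.65, HES1 -0.56 to 1.44, PTCRA -0.62 to 0.55 and NOTCH1 -0.72 to 0.41.

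One array per line gives no error for a line, and values near the arrays' lower quartiles of 3.45 to 3.60 are close to background. Of 40 values of the genes' ranges, 7 moved by more than their spread, for NFKB2, REL, RELB and NFKBIA.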
